A study of Mus musculus with 6 samples.

Results

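The transcripts described here encode 10 carriers of cationic, neutral and anionic amino acids: Slc7a1, Slc7a2, Slc7a5, Slc7a11, Slc3a2, Slc38a2, Slc38a3, Slc38a4, Slc1a4 and Slc25a15. They were found through the RefSeq accessions of the array's probes, which gave 11 member probes of 55681 in all, 1 per gene except Slc7a5 with 2; the 10 genes are among 19752 that the array names. The tested animals were Fra-1hep mice, in which overexpression of the AP-1 subunit Fra-1 is restricted to hepatocytes, on the C57BL/6J strain. They were set against a single wild-type (wt) sample, liver RNA of 5 chow-fed C57BL/6J mice combined into a pool. Animals of both genotypes were 26 to 28 weeks old, untreated and housed under standard conditions. On 5 two-colour arrays the liver RNA of 1 Fra-1hep mouse was labelled with Cy5 and the wild-type pool with Cy3. The last array exchanged the dyes: it held pooled Fra-1hep liver RNA in Cy3 against wild type in Cy5. The promoter that drives Fra-1 in these mice and the number of mice in the Fra-1hep pool are not given in the sources used here. Nor do they state whether that pool holds RNA of mice 1 to 5, so its array may not be independent of theirs.

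Hepatocytes take up amino acids from portal blood, feed ammonia from them into the urea cycle, and release or take up glutamine according to need. Each carrier handles its own set of substrates: some move amino acids with sodium, some exchange one amino acid for another, and some work only as a light chain bound to a heavy chain. Several of these genes are textbook targets of the amino acid response, in which the transcription factor ATF4 raises carriers and synthetic enzymes such as asparagine synthetase when amino acids run short.

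The share of probes that were well above background ranged over the arrays from 48.5 to 58.9% for Fra-1hep and from 45.0 to 50.7% for wild type, with 0 saturated spots. The ratios of mice 2 and 3 differed by 1.12 times the spread between replicate spots, against 1.67 to 2.34 times for the 9 other pairs of mice. The ratios of these mice were therefore averaged, which left n = 4 counted Fra-1hep samples. The Fosl1 probe, for the gene of Fra-1, did not exceed background in either genotype (0 of 6 arrays each), so it does not check the labels. All values are log2 ratios of Fra-1hep over wild type unless called signals. Each fitted ratio comes from limma over 30110 probes with a term for dye, and "changed" means a Benjamini-Hochberg adjusted p under 0.05. The SE of a ratio comes from the spread of the 4 counted samples, moderated by limma towards the spread of all tested probes. The array of pools has no replicate, so its own error is not measured and is taken to equal that of the mice. The wild-type pool is 1 sample, so the spread among wild-type mice is not measured, and the SE does not cover it. In whole liver, fewer cells of a type and less RNA per cell cannot be told apart.

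Among the 10 member carriers, 1 transcript fell in Fra-1hep liver, the glutamine carrier Slc38a3, and 0 rose. In limma, 10 of the 11 member probes could be tested, 1 changed, and 4 had an unadjusted p under 0.05. Over all tested probes 11.5% changed, 5.47% upwards and 6% downwards, so the members' count was near the background. The median fitted log2 ratio was 0.08 over the 10 tested member probes, against 0.01 over all tested probes. The median size of the ratio, without its sign, was 0.14 over the member probes and 0.09 over all. Of all calls, 47.7% were higher in Fra-1hep, a share that was 74.3% with arrays centred on their median in place of loess and 59.9% in the authors' deposited table of ratios.

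**Figure D1:**
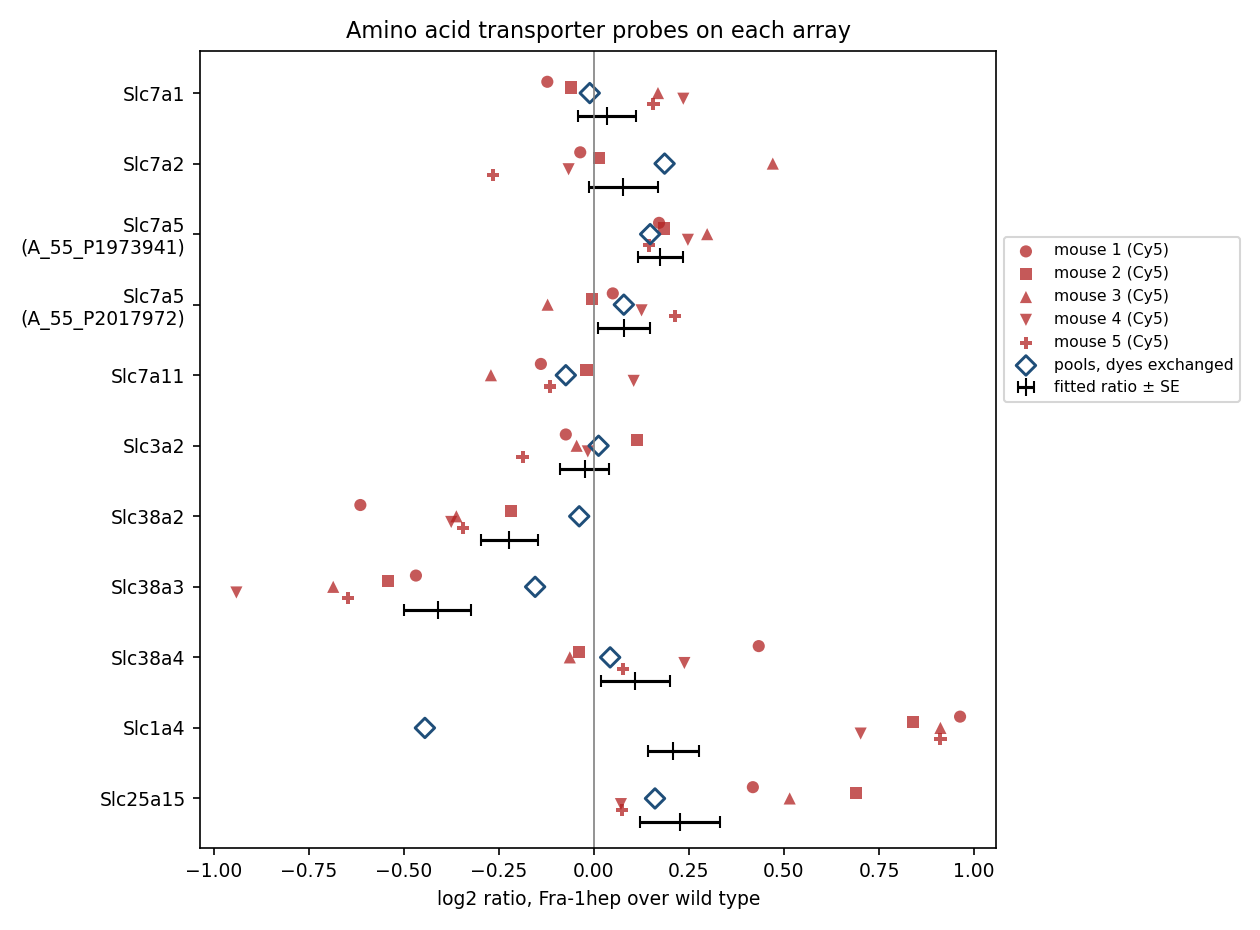
Log2 ratio of Fra-1hep over wild type (horizontal axis) for each member probe (vertical axis). Filled symbols are the 5 mouse arrays, open diamonds the pools (dyes exchanged, sign turned to match), and bars the fitted ratio with its SE; Slc7a11 has no bar because it was not tested. Slc38a3 and Slc38a2 lie below 0 on all 6 arrays, and Slc1a4 lies between 0.70 and 0.96 in the mice but at -0.44 in the pools.

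Slc38a3 (NM_023805) encodes SNAT3, a carrier that moves glutamine, histidine and asparagine with sodium in exchange for protons and can run in both directions in hepatocytes. Its normalised signal was 25465, 23466, 21052, 17318 and 20249 in Fra-1hep mice 1 to 5 and 25627 in the Fra-1hep pool. The wild-type pool gave 35218, 34132, 33852, 33223 and 31678 beside mice 1 to 5 and 28520 beside the Fra-1hep pool. Every Fra-1hep signal was below every wild-type signal, mouse 4 was lowest, and the pools lay closest together. The log2 ratios were -0.47, -0.54, -0.69, -0.94 and -0.65 in mice 1 to 5 and -0.15 in the pools. The fitted ratio was -0.41 (SE 0.09, n = 4, limma adjusted p = 0.0212), which is 1.33-fold lower in Fra-1hep with a 95% interval of -0.61 to -0.21 on the log2 scale. The mice alone averaged -0.67 ± 0.20 (SD, n = 4), so the pools, which weigh as much as all mice in the fit, pull the estimate towards 0. Slides were read from the names of the deposited scans, since the sample labels do not give them. By slide, the mean was -0.50 for mice 1 and 2, -0.81 for mice 3 and 4, and -0.65 for mouse 5. Within the slide that held both dye orientations the ratio was -0.48. The direction held in all 17 alternative settings with a test, but the call was lost in 4: an offset of 0 in the background correction (-0.40, adjusted p = 0.0804), the scanner's processed ratios (-0.40, adjusted p = 0.111), median centring (-0.25, adjusted p = 0.129) and the authors' deposited table (-0.36, adjusted p = 0.146).

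Slc38a2 (NM_175121) encodes SNAT2, the sodium-coupled system A carrier that cells raise when amino acids are scarce. Its signal was 2485, 3033, 2969, 2677 and 2734 in Fra-1hep mice 1 to 5 and 3047 in their pool, against 3803, 3528, 3814, 3472 and 3469 for wild type beside the mice and 3129 beside the pool. The groups did not overlap, and mouse 1 was lowest. The log2 ratios were -0.61, -0.22, -0.36, -0.38 and -0.34 in mice 1 to 5 and -0.04 in the pools. The fitted ratio was -0.22 (SE 0.07, n = 4) and did not pass in limma (adjusted p = 0.101), with a 95% interval of -0.39 to -0.05. It passed without the dye term (-0.33, limma adjusted p = 0.0141), where 19.5% of all tested probes passed. It also passed from the mouse arrays alone (-0.41, limma adjusted p = 0.00387), where 25.1% of all tested probes passed. On the mouse arrays alone, dye and genotype cannot be told apart.

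Slc38a4 (NM_027052) encodes SNAT4, the system A carrier of hepatocytes that also accepts cationic amino acids. Its log2 ratio was 0.43, -0.04, -0.06, 0.24 and 0.08 in Fra-1hep mice 1 to 5 and 0.04 in the pools. Mouse 1 stood highest, mice 2 and 3 lay just below 0, and the signals overlapped (10356 to 14586 in Fra-1hep, 9870 to 11078 in wild type). In the fit it had 0.11 (SE 0.09, n = 4, limma adjusted p = 0.514), with a 95% interval of -0.10 to 0.32. Of the 3 sodium-coupled SNAT carriers only Slc38a3 passed. Slc38a2 was below 0 on all 6 arrays and Slc38a4 on 2 of 6, and a difference between the carriers was not tested.

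**Figure D2:**
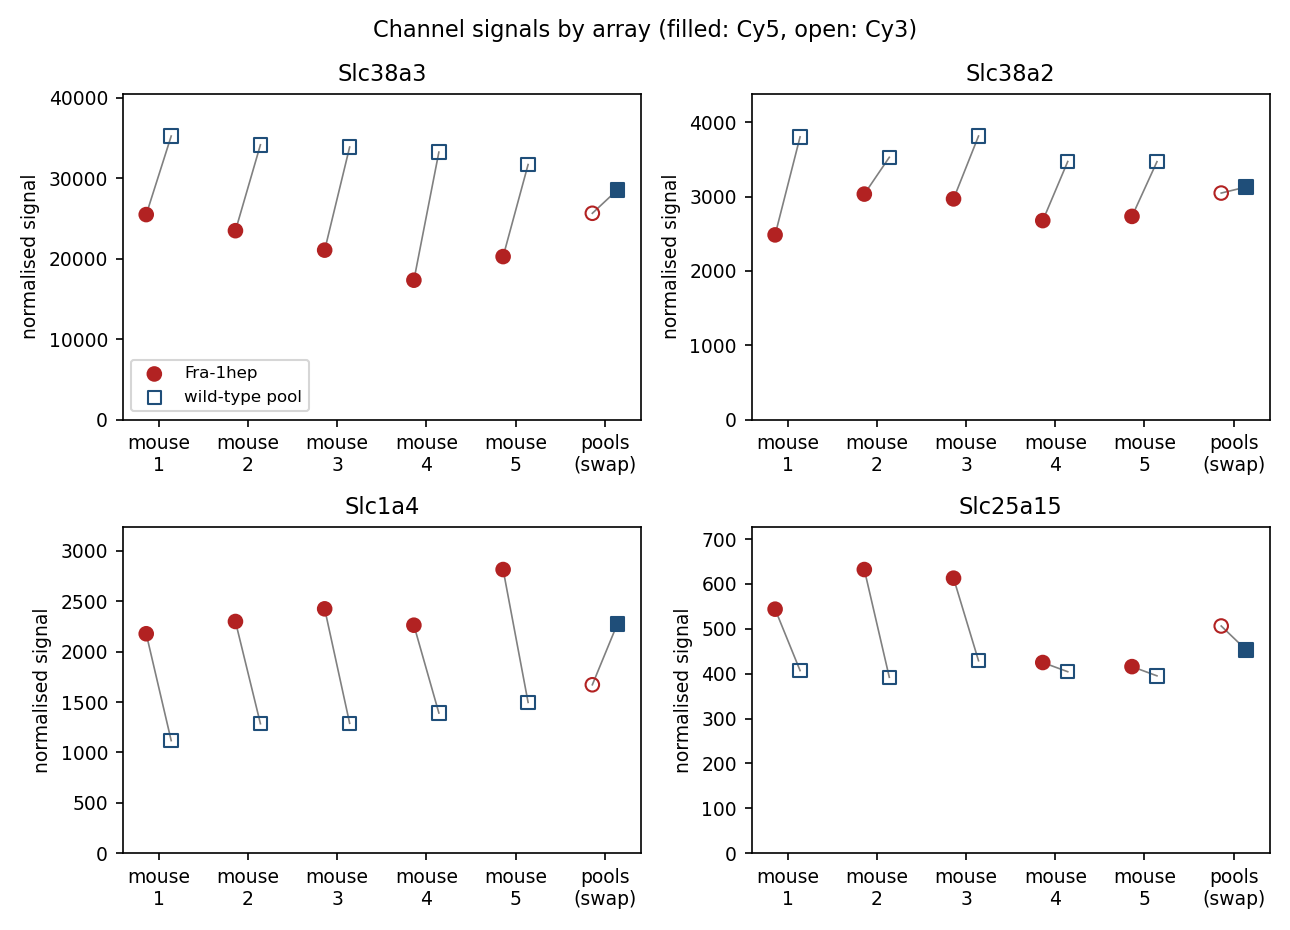
Normalised signal (vertical axis, linear, from 0) of Slc38a3, Slc38a2, Slc1a4 and Slc25a15 on each array (horizontal axis). Circles are Fra-1hep, squares the wild-type pool, and filled symbols the Cy5 channel. For Slc38a3 and Slc38a2 each circle lies below each square, while for Slc1a4 the filled symbol is the higher one on all 6 arrays.

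By the root mean square difference of log2 ratios over the 6 arrays, 5 named genes of 13954 had the pattern nearest to Slc38a3. Steap4, a metalloreductase, was nearest (difference 0.105) with a fitted ratio of -0.45. Lifr, the leukaemia inhibitory factor receptor, followed (difference 0.118, fitted -0.42). Abhd15 (0.133, fitted -0.35), Gprc5a (0.136, fitted -0.46) and the xenobiotic receptor Nr1i2 (0.141, fitted -0.38) came after these. They were picked for likeness over these same arrays, so their ratios are a description.

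Slc3a2 (NM_008577) encodes the heavy chain 4F2hc, or CD98, which brings several Slc7 light chains to the cell surface. Its signal was 3763, 4125, 4227, 3904 and 3093 in Fra-1hep mice 1 to 5 and 3898 in their pool, against 3960, 3812, 4362, 3947 and 3522 for wild type beside the mice and 3865 beside the pool. The groups overlapped throughout, and both were lowest on the array of mouse 5. The fitted log2 ratio was -0.02 (SE 0.06, n = 4, limma adjusted p = 0.864), with a 95% interval of -0.17 to 0.12. Its sign was positive under median centring (0.12) and in the authors' deposited table (0.028).

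Slc7a5 (NM_011404) encodes the light chain LAT1, which exchanges large neutral amino acids such as leucine once bound to 4F2hc. Both of its probes were dim, at signals that include the offset of 50 added in the background correction. Probe A_55_P1973941 gave 105, 110, 122, 118 and 104 in Fra-1hep mice 1 to 5 and 109 in their pool, against 93.0, 96.4, 99.1, 99.1 and 94.1 for wild type beside the mice and 98.8 on the dye-swapped array. All Fra-1hep signals were above all wild-type signals, and the log2 ratios ran narrowly from 0.14 in mouse 5 to 0.30 in mouse 3, with 0.15 in the pools. The fitted ratio was 0.17 (SE 0.06, n = 4, 95% interval 0.04 to 0.31) and did not pass (limma adjusted p = 0.103). It was 0.37 (limma adjusted p = 0.0450) with an offset of 0, and 0.19 (adjusted p = 0.0270) without the dye term, where 19.5% of all tested probes passed. The second probe, A_55_P2017972, had log2 ratios of 0.05, 0.00, -0.12, 0.13 and 0.21 in mice 1 to 5 and 0.08 in the pools. Its groups overlapped, and its fitted ratio was 0.08 (SE 0.07, n = 4, limma adjusted p = 0.528) with a 95% interval of -0.08 to 0.24. Where ranges of signals were compared, 3 of the 10 tested member probes (Slc38a3, Slc38a2 and this first Slc7a5 probe) had groups that did not overlap, against 11.1% of all tested probes.

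Slc7a11 (NM_011990) encodes the light chain xCT, which imports cystine in exchange for glutamate, the anionic exchange of this set. Its probe did not exceed background in either genotype (0 of 6 arrays each), with signals of 51.1 to 70.3 in Fra-1hep and 56.2 to 69.9 in wild type. It was therefore not tested, and no fold is given. The RefSeq promoter table (build GRCm38.p6, 250 bases before each annotated start) holds entries for 7 of the 10 members, and none for Slc7a2, Slc7a5 and Slc38a3. Those promoters were searched on both strands for the core of the amino acid response element, TGATGNAA (TTNCATCA on the other strand), which 3.45% of 32851 promoters hold. Bases after the start and further upstream were not searched, so an element there would be missed. Within the window Slc7a11 was the only one of the 7 to hold the core, at 2 places that do not overlap, 66 to 59 and 47 to 40 bases before the start. Its promoter is shown because these letters also stand in the promoter of Asns, the transcript of asparagine synthetase, 23 to 16 bases before the start. Capitals mark the matches, each sequence runs 5′ to 3′ along the gene, and both genes lie on the minus strand (Slc7a11 at chr3:50443614-50443863, Asns at chr6:7693210-7693459).
Slc7a11: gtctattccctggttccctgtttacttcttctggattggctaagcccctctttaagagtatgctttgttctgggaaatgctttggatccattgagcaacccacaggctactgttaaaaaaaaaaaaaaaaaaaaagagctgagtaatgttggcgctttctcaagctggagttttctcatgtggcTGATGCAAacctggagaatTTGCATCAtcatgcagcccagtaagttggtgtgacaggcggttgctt
Asns: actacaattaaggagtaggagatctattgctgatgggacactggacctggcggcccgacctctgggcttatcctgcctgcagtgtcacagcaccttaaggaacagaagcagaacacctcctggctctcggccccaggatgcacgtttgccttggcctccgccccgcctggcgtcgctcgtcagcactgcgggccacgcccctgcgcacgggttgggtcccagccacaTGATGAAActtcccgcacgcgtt

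The measured values of the genes of these 2 promoters differed. Asns had log2 ratios of 5.38, 5.71, 5.60, 5.42 and 4.78 in Fra-1hep mice 1 to 5 and 5.54 in the pools, while the Slc7a11 probe stayed at background in the same channels. A match of letters is a description of the window and not a bound site.

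Slc7a1 (NM_007513) encodes CAT1, the widely expressed carrier of arginine, lysine and ornithine. Its signal was 128, 145, 150, 165 and 151 in Fra-1hep mice 1 to 5 and 146 in their pool, against 140, 151, 134, 140 and 135 for wild type beside the mice and 147 beside the pool. The groups overlapped, with mice 1 and 2 below wild type and mice 3, 4 and 5 above it. Among the mice this split follows the slides, with a mean of -0.09 for mice 1 and 2 and 0.20 for mice 3 and 4. Mouse 5, the only array on its slide, had 0.16. The pools, on the slide of mice 3 and 4, had -0.01. The fitted ratio of Slc7a1 was 0.04 (SE 0.08, n = 4, limma adjusted p = 0.830), with a 95% interval of -0.14 to 0.21. Of 11 promoters of the 7 members in the table, 1 of the 2 of Slc7a1 held the AP-1 site TGACTCA (searched on both strands), 123 to 117 bases before the start, letters found in 4.46% of all promoters. It is shown because Fra-1 is an AP-1 subunit, with the site in capitals, on the minus strand at chr5:148399905-148400154 of GRCm38.p6.
Slc7a1: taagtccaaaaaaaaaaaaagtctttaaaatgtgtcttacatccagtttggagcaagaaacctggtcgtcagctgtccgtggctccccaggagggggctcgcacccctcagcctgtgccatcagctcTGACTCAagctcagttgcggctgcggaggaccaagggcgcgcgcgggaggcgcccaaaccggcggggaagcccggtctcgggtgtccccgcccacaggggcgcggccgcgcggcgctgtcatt

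Slc7a2 (NM_007514) encodes CAT2, whose low-affinity form is the main cationic amino acid carrier of hepatocytes. Its signal was 552, 679, 823, 595 and 490 in Fra-1hep mice 1 to 5 and 679 in their pool, against 566, 672, 594, 623 and 589 for wild type beside the mice and 597 on the dye-swapped array. Mouse 3 was highest and mouse 5 lowest, and the Fra-1hep signals spanned a wider range than the wild-type ones on both sides. The log2 ratio was 0.47 in mouse 3 but 0.01 in mouse 2, although their arrays agree elsewhere to about the noise of replicate spots. It was -0.04, -0.07 and -0.26 in mice 1, 4 and 5, and 0.19 in the pools. In the fit Slc7a2 had 0.08 (SE 0.09, n = 4, limma adjusted p = 0.658, 95% interval -0.13 to 0.29), and it was -0.031 from the mouse arrays alone.

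Slc1a4 (NM_018861) encodes ASCT1, a sodium-dependent exchanger of alanine, serine, cysteine and threonine. Its log2 ratio was 0.96, 0.84, 0.91, 0.70 and 0.91 in Fra-1hep mice 1 to 5, but -0.44 in the pools. By channel, Fra-1hep gave 2177, 2299, 2425, 2262 and 2815 in Cy5 and 1671 for its pool in Cy3, against 1117, 1285, 1289, 1391 and 1496 for wild type in Cy3 and 2274 in Cy5. The Cy5 channel was the brighter one on all 6 arrays, whichever genotype it held. The fitted ratio was 0.21 (SE 0.07, n = 4, 95% interval 0.05 to 0.37) and did not pass (limma adjusted p = 0.0928). The dye term was 0.65 with a limma adjusted p of 0.00810, the 41st largest of 30110 in size. Dye terms passed for 0.681% of all tested probes, and 13.8% had all 5 mice of one sign and the pools of the other. From the mouse arrays alone, where 25.1% of all tested probes and 4 of 10 member probes passed, the ratio would be 0.86 (adjusted p = 8.93e-05), and within the slide that held both dye orientations it was 0.18. It passed with median centring (0.35, adjusted p = 0.0198) and without the dye term (0.60, adjusted p = 0.0407), where 19.5% of all tested probes passed.

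**Figure D3:**
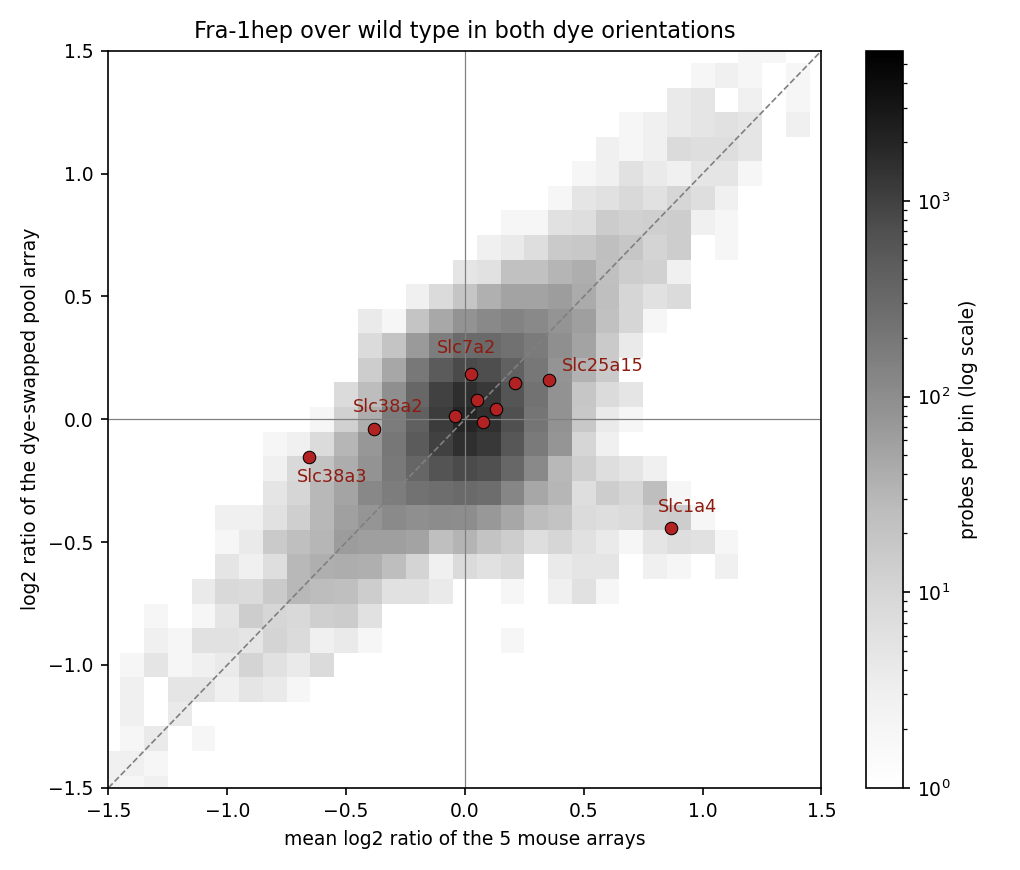
Mean log2 ratio of the 5 mouse arrays (horizontal axis) against that of the pools, with the sign turned to match (vertical axis), for all tested probes (grey, probes per bin on a log scale) and the 10 tested member probes (red). The dashed line marks equal ratios. Slc1a4 lies far from it, and Slc38a3 and Slc38a2 lie nearer to 0 in the pools than in the mice.

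Slc25a15 (NM_181325) encodes the carrier that exchanges ornithine and citrulline across the inner mitochondrial membrane, a step the urea cycle depends on. Its signal was 544, 632, 613, 425 and 416 in Fra-1hep mice 1 to 5 and 506 in their pool, against 407, 392, 429, 404 and 395 for wild type beside the mice and 453 on the dye-swapped array. Mice 1, 2 and 3 lay well above wild type, while mice 4 and 5 lay within its range. The log2 ratios were 0.42, 0.69, 0.52, 0.07 and 0.07 in mice 1 to 5 and 0.16 in the pools, so that all 6 arrays had one sign. Of the 10 tested member probes 4, those of Slc25a15, Slc38a3, Slc38a2 and the first of Slc7a5, had one sign on all 6 arrays, against 25.5% of all tested probes. Its fitted ratio was 0.23 (SE 0.11, n = 4, limma adjusted p = 0.229), with a 95% interval of -0.02 to 0.47.

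The rest of the amino acid carriers were compared as a list of 56 genes of the plasma membrane, lysosome and mitochondria. Of the 33 that were tested, 3 rose and 6 fell, which is 27.3% against the 11.5% of all tested probes, and their median ratio was -0.04. With median centring in place of loess 4 rose and 3 fell, and in the authors' deposited table of ratios 3 rose and 2 fell. In the reported fit the largest fall of the list was that of Slc3a1, the heavy chain rBAT of cystine and dibasic amino acid transport, at -1.75 (SE 0.13, n = 4), with -2.35, -1.72, -1.69, -2.26 and -1.77 in mice 1 to 5 and -1.47 in the pools. The facilitated carrier of large neutral amino acids Slc43a1 (LAT3) fell by 0.95 (SE 0.09), and the glutamate carrier Slc1a2 (GLT-1) fell by 0.86 (SE 0.12), with its other probes at -0.76 and -0.42. The glycine carrier Slc6a9 (-0.38), the GABA and taurine carrier Slc6a13 (-0.31) and the lysosomal glutamine carrier Slc38a7 (-0.26) fell less. Slc7a4, a relative of the CAT carriers with no settled substrate, rose by 0.88 (SE 0.08), and the betaine and GABA carrier Slc6a12 rose by 0.34 (SE 0.06). The last riser was the mitochondrial aspartate and glutamate carrier Slc25a12 (0.25), named after its value was seen. Slc25a12 and Slc38a7 lost their calls without mouse 4 (limma adjusted p = 0.0702 and 0.0506). Both, as well as Slc6a13 and Slc6a9, also lost them with the scanner's processed ratios and in the authors' deposited table. Median centring lost the calls of Slc38a7, Slc6a13 and Slc6a9 (limma adjusted p = 0.205, 0.211 and 0.0620). An offset of 0 lost those of Slc38a7, Slc25a12 and Slc6a13. Slc6a12 did not pass with processed ratios, nor Slc1a2 in the deposited table.

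Of the other light chains that pair with 4F2hc, the 2 tested did not pass. Slc7a7 (y+LAT1, which exports cationic amino acids) had -0.07 (SE 0.07, limma adjusted p = 0.579) and Slc7a8 (LAT2) -0.26 (SE 0.07, adjusted p = 0.0588), while Slc7a6 and Slc7a10 were not tested. With the slide as a random block, a fit that also counts mice 2 and 3 separately, Slc7a8 passed (-0.27, adjusted p = 0.0329). Slc1a5 (ASCT2), a neutral exchanger closely related to Slc1a4, had 0.33 (SE 0.09, adjusted p = 0.0593) and was above 0 on all 6 arrays, in both dye orientations, while its dimmer probe had 0.17 (adjusted p = 0.273). It passed in the same blocked fit (0.36, adjusted p = 0.0417). Slc38a1 (SNAT1) had -0.09 (SE 0.06, adjusted p = 0.375). Of the mitochondrial carriers, Slc25a13, which carries aspartate out to the urea cycle, had -0.04 (SE 0.07, adjusted p = 0.789), and Slc25a2 was not tested.

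**Figure D4:**
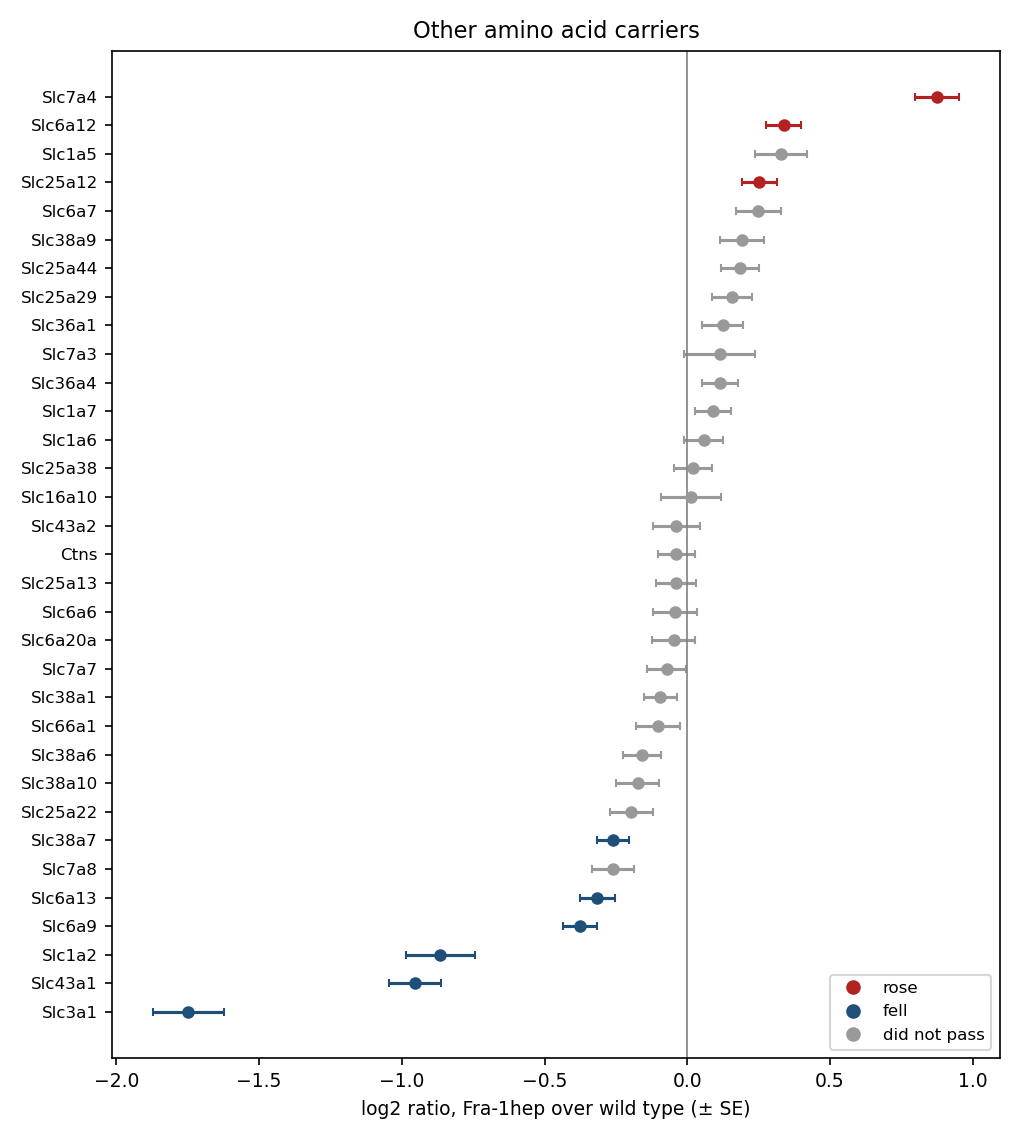
Fitted log2 ratio of Fra-1hep over wild type with its SE (horizontal axis) for the 33 tested genes of the other carriers, ordered by ratio (vertical axis). Red marks the 3 that rose, blue the 6 that fell, and grey those that did not pass; Slc3a1 at -1.75 and Slc7a4 at 0.88 are the ends.

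Since several members are known targets of ATF4, 33 genes of the amino acid response were set beside them. Of 30 tested, 3 rose and 4 fell (23.3%, against 11.5% of all tested probes), with a median of -0.08, while median centring gave 5 and 3. The risers were Asns at 5.42 (SE 0.14, n = 4), the alanine aminotransferase Gpt2 at 0.80 and the translation repressor Eif4ebp1 at 0.40. The cytokine Gdf15 (-1.13), the stress protein Nupr1 (-0.63), the transcription factor Atf3 (-0.51) and Slc6a9, which stands in both lists, fell. Atf4 itself had 0.17 (SE 0.12, limma adjusted p = 0.402) in its brightest probe and -0.05 in another. Beside the large value of Asns, members this pathway is known to raise had -0.22 (Slc38a2), -0.02 (Slc3a2), 0.04 (Slc7a1), 0.17 and 0.08 (Slc7a5), and Slc7a11 stayed at background. The member Slc1a4 had a fitted 0.21, with 0.70 to 0.96 in the mice and -0.44 in the pools. A link between the pathway and the values of the members was not tested.

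Enzymes that share substrates with Slc7a1, Slc7a2, Slc25a15 and Slc38a3 formed the last list of 21 genes of the urea cycle, arginine and glutamine. Of 19 tested, 3 rose and 4 fell (36.8%, against 11.5% of all tested probes), with a median of -0.01. This split depended on the scaling: with median centring in place of loess 5 rose and 0 fell. Glutamine synthetase Glul fell by 0.85 (SE 0.21), with -0.25, -1.69, -1.56, -0.70 and -0.55 in mice 1 to 5 and -0.92 in the pools, and liver glutaminase Gls2 rose by 0.45 (SE 0.11). Argininosuccinate synthase Ass1 rose by 0.40 (SE 0.09) with 0.57 to 1.08 in the mice but 0.00 in the pools, and a dimmer probe did not pass (0.38, adjusted p = 0.0730). Argininosuccinate lyase Asl rose by 0.34 (SE 0.09). Agmatinase Agmat (-0.42), ornithine aminotransferase Oat (-0.41) and endothelial nitric oxide synthase Nos3 (-0.37) fell. Arginase Arg1 had 0.01 (limma adjusted p = 0.941), Cps1, the entry enzyme of the cycle, 0.28 (adjusted p = 0.0820), and Otc, which uses the ornithine brought in by Slc25a15, -0.35 (adjusted p = 0.0847), although a dimmer Otc probe passed at -0.38 (adjusted p = 0.0287). Asl and Gls2 lost their calls without mouse 1, 3 or 4 (adjusted p = 0.0505 to 0.0744) and Glul without mouse 4 or 5 (0.0538 and 0.0519).

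Markers of other cell types also differed between the groups. For comparison with the counts that follow, 5.47% of all tested probes rose and 6% fell. Of 8 neutrophil markers measured in both genotypes 7 rose and 0 fell, with S100a9 at 3.53, Mpo at 3.48, S100a8 at 3.48 and Camp at 3.36, and the summed signal of the 10 tested was 37644 to 88091 in Fra-1hep against 24534 to 30119 in wild type. The other 2, Cxcr2 and Mmp8, entered the test only through Fra-1hep, being well above background in wild type on 0 and 1 of 6 arrays. They are left out of that count, but the neutrophil sums hold them. The neutrophil sum was 37644, 65214, 70820, 88091 and 47906 in mice 1 to 5 and 63479 in the Fra-1hep pool. With a robust variance that follows intensity, S100a9, Mpo, S100a8 and Camp lost their calls (limma adjusted p = 0.0630 to 0.125). Of 11 tested macrophage markers 10 fell and 0 rose (median -0.58), with sums of 33018 to 54912 in Fra-1hep against 65785 to 75059 in wild type. Among them Adgre1, C1qa, C1qb, C1qc, Csf1r, Timd4, Vsig4 and Cd163 lost their calls with processed ratios and in the deposited table. Itgax kept its call in all 17 settings. Of 9 endothelial markers 7 fell and 0 rose, with sums of 10669 to 16587 in Fra-1hep against 20593 to 21835 in wild type, and of 8 T and NK cell markers measured in both genotypes 5 fell and 0 rose. Cd8a entered only through wild type (5 of 6 arrays, against 1 of 6 for Fra-1hep) and is left out of that count. The sums of all 9, Cd8a among them, were 5803 to 9339 in Fra-1hep against 6273 to 10061 in wild type. The endothelial markers Cdh5, Clec4g, Pecam1, Stab1, Lyve1 and Tek also lost their calls with processed ratios and in the deposited table. Of 5 cholangiocyte markers measured in both genotypes 2 rose (Spp1 1.04, Epcam 0.41) and 0 fell. Cftr entered only through Fra-1hep, did not pass and is left out of that count. Of 7 stellate markers Pdgfrb rose and Acta2 fell. Of 10 hepatocyte markers 1 rose (Fgb) and 2 fell (Alb at -0.65 and Apoa1 at -0.34), all of them well above background on every array. The value of Alb was lowest in the pools (-1.08, against -0.46 to 0.07 in the mice) and did not pass from the mouse arrays alone (-0.21, adjusted p = 0.121). The summed hepatocyte signal of Fra-1hep was 1.24 to 1.43 times that of wild type on the 5 mouse arrays and 0.743 times on the dye-swapped array. The part of these cells in the values of Slc38a3 and the other carriers was not tested.

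**Figure D5:**
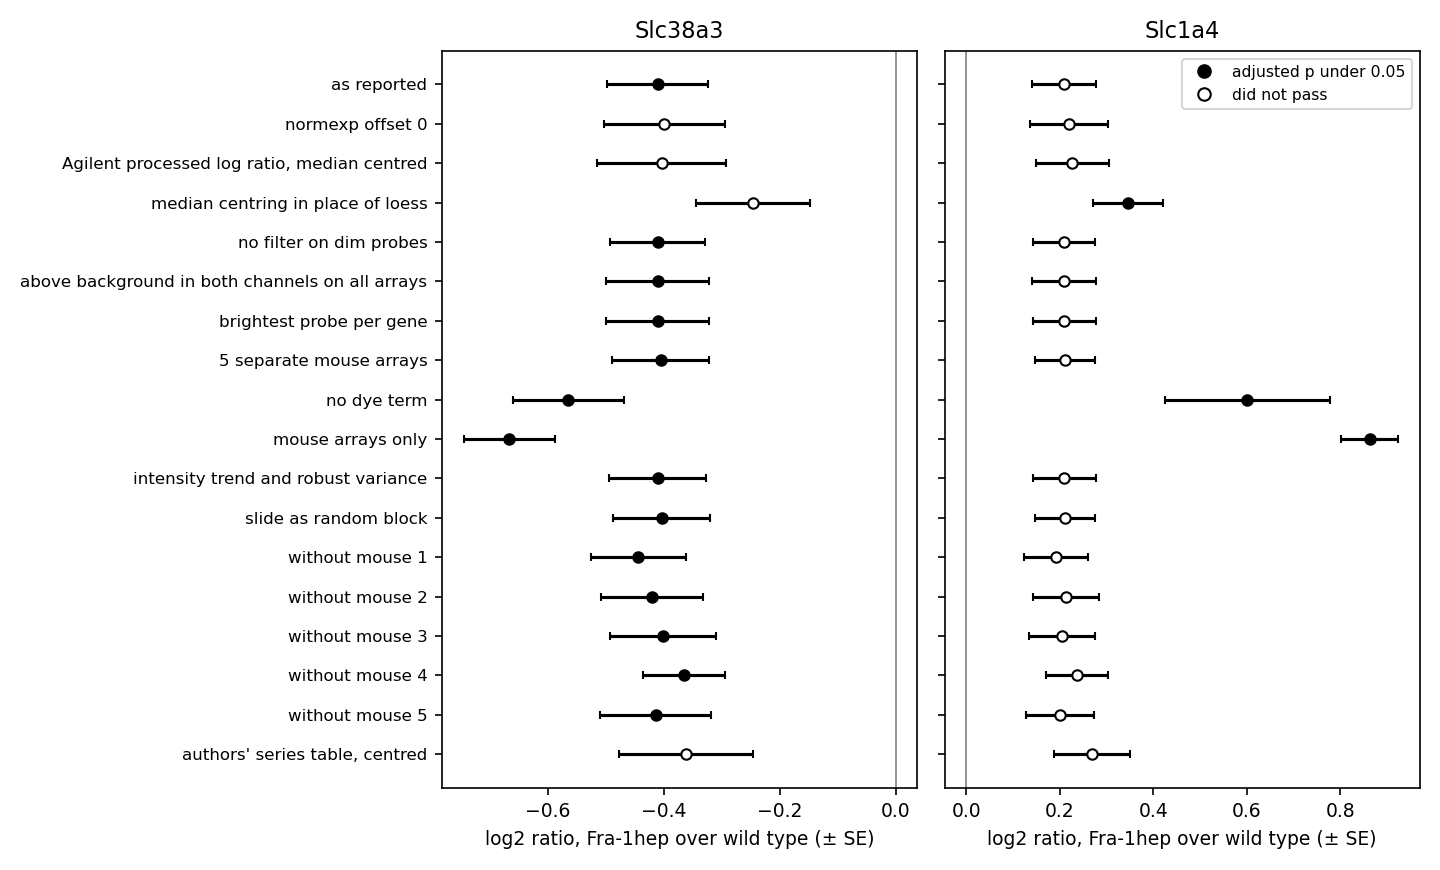
Fitted log2 ratio with its SE (horizontal axes) of Slc38a3 and Slc1a4 under each processing setting (vertical axis). Filled points passed at an adjusted p under 0.05. Slc38a3 stays below 0 throughout, from -0.67 to -0.25, while Slc1a4 is at 0.86 from the mouse arrays only and between 0.19 and 0.35 in the settings that keep the dye-swapped array and a dye term.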

How the data were processed

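Liver RNA (100 ng, integrity above 7.8) was hybridised to 6 two-colour Agilent arrays of 62976 spots. Images were read by Agilent Feature Extraction, version 10.7 in the submitters' processing notes and 10.7.3.1 per the file headers. In the deposited scanner files the authors give median spot and background signals as intensity, not normalised, and a processed intensity that was background-corrected and dye-normalised. They also hold its log10 ratio of Cy5 over Cy3, per the file headers. A series table deposited by the authors gives log2 ratios. Each of its columns was within a median difference of 1.73e-07 of the scanner's processed ratio turned to Fra-1hep over wild type, and uncentred (medians from -0.18 to 0.06).

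Here, median signals were background-corrected with normexp (offset 50) and loess-normalised within arrays in limma 3.58.1 (R 4.3.3, data.table in version 1.17.8). Control spots and 190 to 301 outlier spots per array had weight 0, and spots of a probe were averaged. With this offset, ratios of dim probes lie nearer to 0. A probe was tested if Fra-1hep was well above background on 3 or more of the 5 mouse arrays, or wild type on 3 or more of all 6 (30110 probes). Probes of a member were kept apart. A gene of another list was represented by its brightest probe. The limma fit (lmFit, eBayes) had a genotype and a dye term, 3 residual and 5.11 prior degrees of freedom, was 2-sided and was adjusted by Benjamini-Hochberg over all tested probes. Data were simulated with independent normal errors of the moderated spread, and with no error shared through the wild-type pool. On these, the fit recovered 98% of 100 probes changed by 0.5 on the log2 scale and 100% of 100 probes changed by 1. It made 22 false calls among the other probes. These shares need not hold for the measured data, where the macrophage marker Marco at -1.33 and the urea cycle list gene Got1 at 0.57 did not pass.

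Accessions were named through the RefSeq gene list of GRCm38.p6 (26056 probes had 1 symbol), used for names only, since the arrays were designed on an earlier build. Promoters came from the RefSeq table of the same build. The series design text speaks of 6 single Fra-1hep mice, the sample labels of 5 and a dye-swapped array of pools, and the labels were followed.

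The members and lists were chosen with earlier results of these data known. Named were all member probes, up to 8 changed genes per list, the partner light chains, Slc1a5, Slc38a1, Slc25a13, Slc25a2, Asns, Atf4, Arg1, Otc and Cps1 regardless of the test, up to 4 changed markers per cell type, and the 5 genes most like Slc38a3. The alternatives changed the background correction, the normalisation, the filter, the dye term, the slide and the samples.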

Additional observations from a re-analysis of the deposited data

Results flagged for a closer look

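Slc1a4 was singled out because its mouse arrays and the dye-swapped array of pools lay on opposite sides of 0. The mouse arrays exceeded the turned pool array by 1.31 on the log2 scale, and the test of that difference, the dye term in limma, had an adjusted p of 0.00810. The mouse arrays were all in one dye orientation and the pools in the other. The wild-type pool gave a signal of 2274 in Cy5 on the dye-swapped array, against 1117 to 1496 in Cy3 on the mouse arrays. In this design the dye orientation goes with pooled against single-mouse Fra-1hep RNA. These cannot be told apart for Slc1a4, and the cause of the difference was not tested.

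The median ratio of the 19 tested urea cycle and arginine genes was singled out because mouse 1 stood apart from the other 3 counted samples. Its gap to the nearest of them was 0.830 of the whole range, just above Dixon's 95% critical value for 4 samples. The medians were -0.16 in mouse 1, -0.16 in mouse 2, -0.07 in mouse 3, -0.10 in mouse 4 and -0.09 in mouse 5, where mice 2 and 3 count as 1 sample. With 10 member probes and 10 list medians examined, chance alone would single out about 1 in 20.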

How the results depend on the processing

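The count of changed member probes was 1 in the reported fit, 0 with the scanner's processed ratios and 0 in the authors' deposited table (limma, with 4 and 3 at an unadjusted p under 0.05), and 4 both without the dye term and from the mouse arrays only. It was 1 each time a mouse was left out. With an offset of 0 and with median centring it was also 1, but the probe was the first of Slc7a5 (0.37) and that of Slc1a4 (0.35), in place of Slc38a3. The sign turned for Slc7a2 from the mouse arrays only (-0.031) and for Slc3a2 under median centring (0.12) and in the authors' deposited table (0.028). The other carriers had 9 changed genes, against 5 with processed ratios, 5 in the authors' deposited table, 14 without the dye term, 18 from the mouse arrays only, and 7 to 10 without each mouse in turn. Slc6a7, which entered the test only through Fra-1hep, is counted with processed ratios, in the deposited table, without the dye term and from the mouse arrays only. Slc7a3, which also entered that way, is counted from the mouse arrays only. The amino acid response genes had 7, against 3, 3, 12 and 13 in the same settings and 7 to 8 without each mouse. The urea cycle genes had 7, against 0 with an offset of 0 (limma, 11 at an unadjusted p under 0.05), 1 with processed ratios, 1 in the authors' deposited table, and 5 to 7 without each mouse. Slc3a1, Slc43a1, Slc7a4, Asns, Gdf15 and Gpt2 kept their calls in all 17 settings with a test. The cause of these moves was not tested. Over all probes 3455 changed, against 2181 with an offset of 0, 1619 with processed ratios, 1555 in the authors' deposited table, 5883 without the dye term, 3905 with median centring and 7553 from the mouse arrays only. The slide as a random block changed no member call, but with mice 2 and 3 counted separately in that fit the other carriers had 11 changed genes, the response genes 10 and the urea cycle genes 8. Every value is a ratio within an array and so already sets each Fra-1hep sample against wild type on the same array. No paired analysis was possible beyond that because wild type is 1 pool and shares no replicate numbers with the mice. The pool array has no replicate, and weak signal limits both Slc7a5 probes and Slc7a11.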
